A study of Mus musculus with 6 samples.

Results

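The genes described here are the solute carrier (Slc) genes that CD8+ T cells expressed: every gene whose mouse symbol begins with Slc, apart from the mitochondrial Slc25 family and Slc7a11, with at least 1 FPKM in at least 3 of the 6 libraries. The genes were thus chosen by their measured FPKM values, under a rule that does not use the difference between the groups. The rule itself was set with earlier results of these data known. FPKM values scale fragment counts by transcript length and library size, so they compare levels between genes of different length. The rule took 142 of the 261 such genes that were listed in at least 1 library, and these 142 stand among 10890 genes that passed the same level threshold in the series. The cells were CD8+ T cells that had been sorted from the tissue labelled iLN, in C57BL/6 mice that bore tumors and had been given the platinum drug oxaliplatin. The 3 ID2KO libraries were from mice with the genotype Cd4creId2f/f, and the 3 WT libraries from Id2f/f mice, which carry the floxed alleles without Cre. Tumor and oxaliplatin were thus shared by both groups, and no group without either is part of the comparison. Cre under the Cd4 promoter is active from the thymic stage at which CD4 and CD8 are both expressed, and so in CD4 and CD8 T cells alike, and because only the ID2KO mice carried Cre, an effect of Cre and the loss of Id2 cannot be told apart. The labels give neither the age of the mice nor the source animal of each sample, so each p-value reflects the spread among the 6 samples, part of which may be technical.

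Solute carriers are membrane proteins that move small molecules, by exchange, by facilitated diffusion or coupled to the gradient of an ion such as sodium. Activated T cells are known to raise their uptake of glucose, glutamine, leucine and other large neutral amino acids, for which they use the products of Slc2a1, Slc2a3, Slc1a5 and the heterodimer of Slc7a5 with Slc3a2, and to release lactate through Slc16a1 and Slc16a3. Nucleosides enter through equilibrative carriers (Slc29 family) or sodium-coupled concentrative carriers (Slc28 family). Id2, the gene targeted here, encodes an inhibitor that binds E proteins, transcription factors that recognise the DNA motif CANNTG, the E box.

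The name of the family covers more than the cell surface. By general knowledge, applied by gene or by family, 60 of the 142 genes were placed mainly in an intracellular membrane: 33 in the Golgi or endoplasmic reticulum, 22 in endosomes or lysosomes, 4 in secretory vesicles and 1 in mitochondria. All Slc35 genes were placed in the Golgi or endoplasmic reticulum. The others were not listed as intracellular, which does not show that they act at the cell surface. Among them, 6 bear an Slc symbol and encode no carrier, such as the scaffold gene Slc9a3r1 and antisense or pseudogene entries. The term plasma membrane carrier therefore fits at most a part of the set.

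Each library held between 7699181 and 8495123 expected counts. Id2 had 1.67, 2.64 and 2.12 FPKM in the ID2KO libraries, against 370.98, 146.76 and 149.01 FPKM in the WT libraries, and Cd8a stood at 214 ± 17.8 FPKM in ID2KO and 212 ± 10.9 FPKM in WT (SD, n = 3 each). The 16 B cell markers of a list summed to 695, 2990 and 624 FPKM in ID2KO and to 940, 3140 and 3670 FPKM in WT, so these transcripts varied within both groups. Ighm and Ighd had no entry under these symbols in any library, which is not a measured 0. The 8 dendritic cell markers summed to between 19.9 and 28.4 FPKM in ID2KO and between 38.1 and 40.1 FPKM in WT, with 3 of 5 tested markers lower in ID2KO and likewise no entry for Clec9a. The 6 NK cell markers, a list that includes Gzma, which CD8 T cells also express, summed to between 33.4 and 79.1 FPKM in ID2KO and between 572 and 1300 FPKM in WT, with 1 of 3 tested markers lower in ID2KO. The 6 markers of CD4 and regulatory T cells summed to between 90.6 and 96.2 FPKM in ID2KO and between 62.7 and 79.5 FPKM in WT, with 2 of 5 tested higher in ID2KO. The 6 gamma delta T cell markers summed to between 15 and 24.1 FPKM in ID2KO and between 8.39 and 16.3 FPKM in WT, with 1 of 2 tested higher and likewise no entry for Trdc, Tcrg-C1 and Tcrg-C2. Of the plasma cell markers, 2 of 6 tested were lower in ID2KO, with sums of 92.3 to 110 FPKM in ID2KO and 106 to 125 FPKM in WT, and of the stromal and endothelial markers 1 of 2 tested was lower, with sums of 43.3 to 48.4 FPKM in ID2KO and 37.1 to 46.7 FPKM in WT. The part of these cells in the results was not tested. In bulk RNA, fewer cells of a type and less RNA per cell cannot be told apart.

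Of the 142 genes, 11 were higher and 8 were lower in ID2KO at an adjusted p of at most 0.05 (edgeR's quasi-likelihood test, two-sided, Benjamini-Hochberg adjustment over all 10890 genes). The 11 are 7.75% of the Slc genes, where 3.14% of all genes tested were higher. The 8 are 5.63%, where 8.77% of all genes were lower. Because the members were chosen with earlier results of these data known, these shares cannot show an excess over all genes. The 8 include Slc15a3, which met the level threshold through the WT libraries alone and so could only be lower. The FPKM values of ID2KO and WT did not overlap for 25 Slc genes with ID2KO above and 19 with ID2KO below, beside 15.3% and 16.8% of all genes tested and 32.1% in either direction. The median log2 fold change, ID2KO over WT, was 0.06 over the Slc genes and 0.01 over all genes, and the range over the Slc genes was -2.95 (Slc15a3) to 1.92. The counts depended on single libraries: the number higher was 7 without ID2KO replicate 1, 14 without ID2KO replicate 2, 4 without ID2KO replicate 3, 6 without WT replicate 2 and 7 without WT replicate 3. The number lower was 5 without ID2KO replicate 1, ID2KO replicate 3 or WT replicate 3, and 12 without ID2KO replicate 2. In all 6 fits that left out 1 library, 9 of the 19 calls held, namely Slc28a2b, Slc6a19, Slc12a7 and Slc16a5 as higher and Slc43a3, Slc2a3, Slc16a3, Slc35a3 and Slco4a1 as lower. Of the 82 genes not placed in an intracellular membrane, which include the 6 entries that encode no carrier, 10 were higher and 6 lower. Of the 60 placed in one, 1 was higher and 2 were lower, a difference that was not tested.

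**Figure D1:**
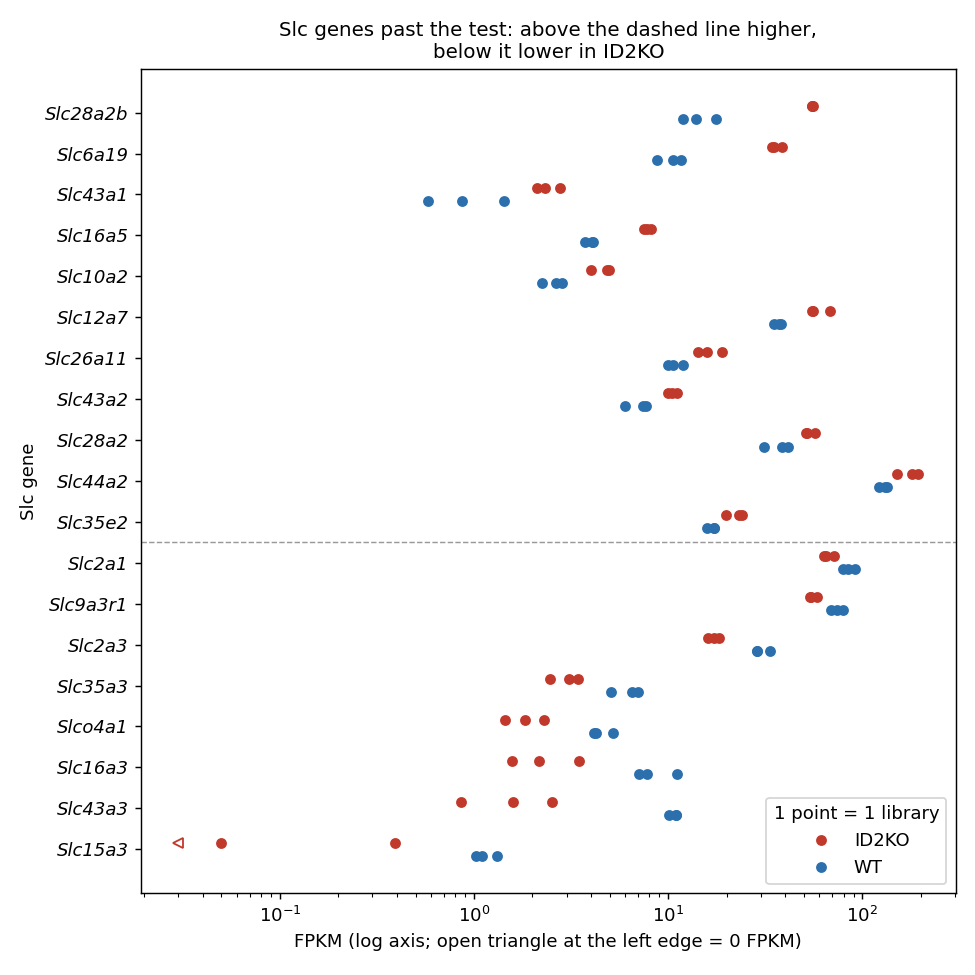
FPKM of the 19 Slc genes past the test in each library, on a log axis (1 point is 1 library, ID2KO drawn above WT for each gene). The 11 genes above the dashed line were higher and the 8 below it lower in ID2KO, and the points of ID2KO and WT do not overlap for any of the 19, with Slc15a3 at 0 FPKM in 1 ID2KO library.

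The promoters of 6 of these genes are shown. They are Slc28a2b and its neighbour and near copy Slc28a2, and Slc6a19 and its neighbour Slc12a7, all called higher. The other genes shown are the lactate carrier gene Slc16a3 and the glucose carrier gene Slc2a1, both called lower. The call of Slc2a1 held in no fit that left out 1 library, and whether any of these genes change together was not tested. Each window runs from 250 bases before to 50 after an annotated start in RefSeq (build GRCm38.p6, the assembly called mm10 in the submitters' processing notes), written 5′ to 3′ on the strand of the gene. Of the 142 genes, 107 had a window. Capitals in the first 4 sequences mark E boxes of a narrower set, namely CAGCTG, which reads the same on both strands, and CAGGTG, which was searched on both strands. Capitals in the last 2 mark ACGTG, the core of the hypoxia response element, also searched on both strands. The windows are chr2:122484691-122484990 (plus strand) for Slc28a2b, chr2:122426185-122426484 (plus) for Slc28a2, chr13:73692587-73692886 (minus) for Slc6a19, chr13:73763410-73763709 (plus) for Slc12a7, chr11:120948817-120949116 (plus) for Slc16a3 and chr4:119108495-119108794 (plus) for Slc2a1. The starts of Slc28a2, Slc6a19, Slc12a7 and Slc16a3 lie inside the span annotated for the whole gene, and Slc12a7 has a further annotated start shortly downstream.
Slc28a2b: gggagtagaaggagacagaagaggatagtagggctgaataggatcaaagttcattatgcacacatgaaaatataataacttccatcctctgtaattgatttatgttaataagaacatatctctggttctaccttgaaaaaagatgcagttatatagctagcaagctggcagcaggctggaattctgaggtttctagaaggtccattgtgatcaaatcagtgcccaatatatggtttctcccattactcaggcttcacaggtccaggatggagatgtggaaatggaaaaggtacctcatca
Slc28a2: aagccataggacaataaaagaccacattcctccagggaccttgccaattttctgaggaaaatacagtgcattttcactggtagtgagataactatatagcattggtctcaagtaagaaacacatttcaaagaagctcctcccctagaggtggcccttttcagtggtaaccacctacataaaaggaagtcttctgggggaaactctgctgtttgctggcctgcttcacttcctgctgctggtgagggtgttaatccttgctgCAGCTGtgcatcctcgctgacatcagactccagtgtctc
Slc6a19: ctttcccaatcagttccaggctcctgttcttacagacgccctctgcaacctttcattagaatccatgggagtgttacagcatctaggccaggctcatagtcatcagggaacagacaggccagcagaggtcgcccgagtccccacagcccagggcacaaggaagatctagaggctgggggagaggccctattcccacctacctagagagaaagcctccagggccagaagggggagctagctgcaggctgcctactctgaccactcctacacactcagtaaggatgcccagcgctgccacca
Slc12a7: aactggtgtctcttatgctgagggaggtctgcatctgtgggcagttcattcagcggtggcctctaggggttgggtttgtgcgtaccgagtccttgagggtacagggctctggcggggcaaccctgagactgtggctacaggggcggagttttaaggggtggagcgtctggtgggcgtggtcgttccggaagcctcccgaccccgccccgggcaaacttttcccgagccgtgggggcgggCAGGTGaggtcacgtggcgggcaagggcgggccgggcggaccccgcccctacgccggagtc
Slc16a3: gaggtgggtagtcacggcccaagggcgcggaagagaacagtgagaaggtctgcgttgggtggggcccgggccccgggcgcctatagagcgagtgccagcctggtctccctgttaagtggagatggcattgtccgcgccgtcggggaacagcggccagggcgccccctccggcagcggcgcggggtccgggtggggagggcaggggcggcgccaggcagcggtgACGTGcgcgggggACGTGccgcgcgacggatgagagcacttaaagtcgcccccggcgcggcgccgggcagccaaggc
Slc2a1: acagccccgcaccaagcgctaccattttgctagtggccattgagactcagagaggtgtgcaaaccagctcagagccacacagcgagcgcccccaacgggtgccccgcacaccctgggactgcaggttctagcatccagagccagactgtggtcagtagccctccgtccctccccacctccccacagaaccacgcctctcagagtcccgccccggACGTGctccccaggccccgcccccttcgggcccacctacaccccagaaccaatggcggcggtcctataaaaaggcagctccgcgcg
Any E box, CANNTG on either strand, occurred 1 time in the Slc28a2b window, 1 time in that of Slc28a2, 3 times in that of Slc12a7 and not in that of Slc6a19. Searched on both strands, CANNTG was in 72.0% of the first windows of the 107 Slc genes, against 63.5% of the first windows of 8638 genes tested and 72.3% of all 32851 windows in the table, which count further starts and genes that were not tested. The narrower set was found in the Slc28a2 window, as CAGCTG, and in the Slc12a7 window, as CAGGTG, while 37.4% of the Slc gene windows, 28.4% of the first windows of genes tested and 32.9% of all windows held a member of it. The hypoxia element core ACGTG occurred 2 times in the Slc16a3 window and 1 time in the Slc2a1 window. It was present in 29.9% of the Slc gene windows, 26.9% of the first windows of genes tested and 19.6% of all windows. Among called Slc genes with a window, the core was in 3 of 8 first windows of genes higher in ID2KO. It was in 2 of 5 of genes lower, so it was found among rises as well as falls. No difference between these shares was tested. The Slc12a7 window also holds CACGTG, which counts as an E box and as the hypoxia element core on each strand. These are matches of letters in a short window and do not show binding.

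Amino acid carriers formed the most abundant class. Its 21 genes included 3 that were higher in ID2KO and none that was lower at the threshold, with 18 not past the test and a median log2 fold change of 0.14 (2 were lower at an unadjusted p under 0.05). Their FPKM summed to 819 ± 10.1 in ID2KO and 700 ± 37.4 in WT (SD, n = 3 each), without overlap between the groups. The largest parts of that sum were Slc3a2 (390 FPKM on average in ID2KO, 356 in WT) and Slc1a5 (159 in ID2KO, 119 in WT), neither of which passed the test. By fold change, the largest rise was in Slc6a19, which encodes B0AT1, a sodium-coupled carrier of neutral amino acids best known from the brush border of intestine and kidney. It had 34.93, 38.75 and 34.32 FPKM in the ID2KO libraries, against 10.61, 11.57 and 8.74 FPKM in the WT libraries. The lowest ID2KO library lay far above the highest WT library, and the log2 fold change was 1.79 (SE 0.129, adjusted p = 8.66e-05, edgeR). The other 2 rises were in Slc43a1 and Slc43a2, which encode LAT3 and LAT4, sodium-independent facilitative carriers of leucine and other large neutral amino acids. Slc43a2 stood at 10.02, 11.09 and 10.41 FPKM in ID2KO and 7.64, 5.97 and 7.43 FPKM in WT, a log2 fold change of 0.57 (adjusted p = 0.0171, SE 0.127). Slc43a1 was scarcer, with 2.31, 2.10 and 2.76 FPKM in ID2KO and 0.58, 1.42 and 0.87 FPKM in WT (log2 fold change 1.31, SE 0.341, adjusted p = 0.0337). Both sets of 3 lay apart, but the call of Slc43a2 was lost without ID2KO replicate 3 or WT replicate 3 (adjusted p = 0.0675 and 0.0531), and that of Slc43a1 without ID2KO replicate 1, ID2KO replicate 3, WT replicate 1 or WT replicate 3 (adjusted p = 0.0778, 0.134, 0.0815 and 0.126). Slc43a1 was also not called with the replicate block, the B cell covariate or limma at a pseudocount of 0.1 (adjusted p = 0.0586, 0.0632 and 0.0546).

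The carriers through which activated T cells take up leucine and glutamine did not pass the test. Slc3a2 encodes the heavy chain CD98 that escorts several light chains to the surface, and it was the most abundant of all 142 genes, with 14.7% of their summed mean FPKM. It had 391.35, 399.98 and 379.90 FPKM in ID2KO and 389.13, 357.73 and 320.82 FPKM in WT, which overlap (log2 fold change 0.12, SE 0.109, adjusted p = 0.534). Its light chain partner for leucine, Slc7a5 (LAT1), was far scarcer, with 3.18, 4.32 and 3.42 FPKM in ID2KO and 5.55, 6.30 and 4.65 FPKM in WT. All 3 ID2KO values lay below the WT values, at a log2 fold change of -0.61 that missed the threshold (SE 0.189, adjusted p = 0.0638) and passed it without ID2KO replicate 2 (-0.73, adjusted p = 0.0417). Slc7a5 transcripts per Slc3a2 transcript were accordingly 0.008, 0.011 and 0.009 in ID2KO and 0.014, 0.018 and 0.014 in WT, as ratios of FPKM. Another light chain, Slc7a6 (y+LAT2), which exchanges cationic for neutral amino acids, was the more abundant partner, with 28.54, 32.42 and 30.61 FPKM in ID2KO and 25.38, 27.55 and 28.02 FPKM in WT (log2 fold change 0.16, adjusted p = 0.283). It was named after its values were seen.

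Slc1a5 encodes ASCT2, the sodium-dependent exchanger that brings in glutamine. It was the third most abundant Slc gene, with 171.61, 137.41 and 169.44 FPKM in ID2KO and a narrow 118.76, 119.35 and 117.76 FPKM in WT. The groups did not overlap, and the log2 fold change of 0.42 (SE 0.12) fell just short of the threshold (adjusted p = 0.0501, edgeR), while 8 of the 15 alternative analyses called it higher, among them the fit without ID2KO replicate 2 (adjusted p = 0.00629). Slc38a1 and Slc38a2 encode SNAT1 and SNAT2, sodium-coupled carriers of glutamine and alanine. Slc38a1 averaged 24.1 ± 0.341 FPKM in ID2KO and 26.8 ± 2.19 FPKM in WT, and Slc38a2 averaged 74.7 ± 9.5 FPKM in ID2KO and 64.3 ± 11 FPKM in WT, with log2 fold changes of -0.15 and 0.19 (adjusted p = 0.32 and 0.444). The arginine and lysine carrier gene Slc7a1 had 7.88, 9.90 and 9.63 FPKM in ID2KO, below the 10.27, 11.42 and 11.79 FPKM in WT, without passing the test (log2 fold change -0.31, adjusted p = 0.104). For the taurine carrier gene Slc6a6 the log2 fold change was 0.03 (SE 0.108, adjusted p = 0.878).

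**Figure D2:**
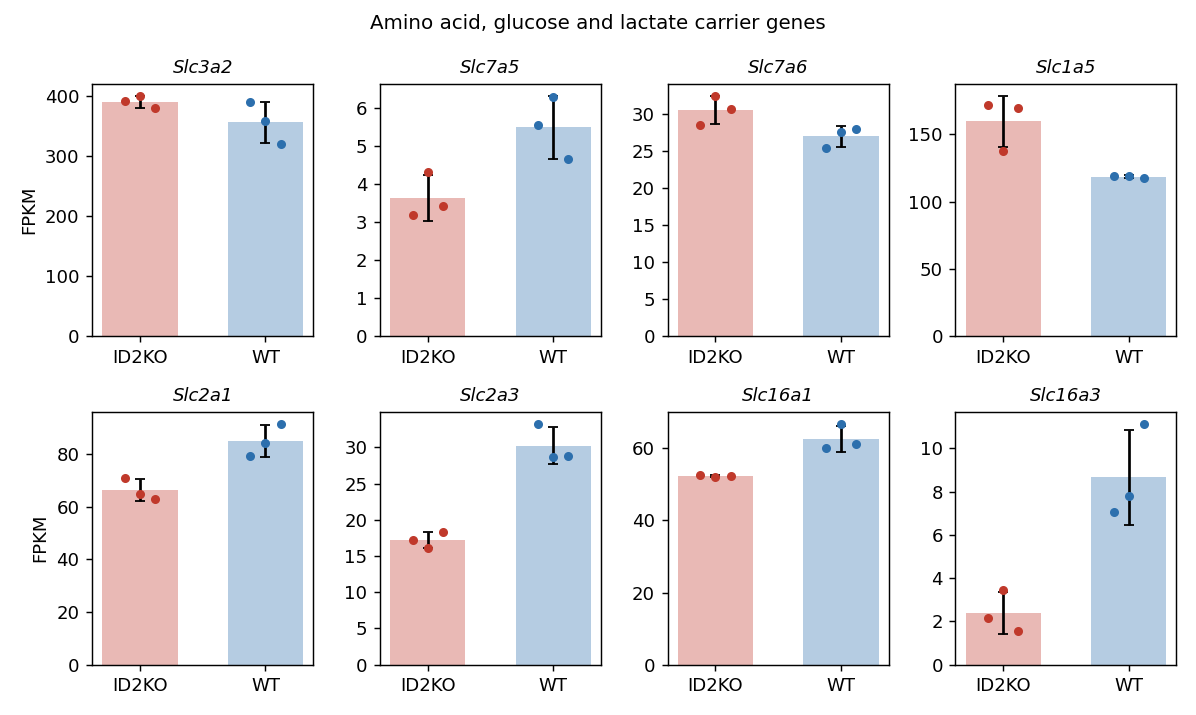
FPKM of 8 amino acid, glucose and lactate carrier genes, with ID2KO left of WT in each panel (bars are means, error bars SD, points the 3 libraries, and each axis starts at 0). Slc2a3, Slc2a1 and Slc16a3 passed the test as lower in ID2KO, while Slc3a2, Slc7a5, Slc7a6, Slc1a5 and Slc16a1 did not pass it.

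Nucleoside carriers held both the largest rise of the 142 genes and the fall next in size to that of Slc15a3. Of 6 genes, 2 were higher, 1 was lower and 3 did not pass, and the summed FPKM of the class was 153 ± 1.73 in ID2KO and 111 ± 9.33 in WT. Slc28a2 encodes CNT2, a sodium-coupled carrier of purine nucleosides and uridine, and Slc28a2b is its neighbouring near copy on chromosome 2. Slc28a2b had 55.97, 54.91 and 55.25 FPKM in the ID2KO libraries, against 11.92, 13.95 and 17.72 FPKM in the WT libraries. The ID2KO values were nearly the same as each other and all above the WT values, and the log2 fold change was 1.92 (SE 0.133, adjusted p = 8.47e-05, edgeR). Slc28a2 had 51.17, 56.93 and 52.10 FPKM in ID2KO and 38.46, 31.14 and 41.31 FPKM in WT, a smaller rise without overlap (log2 fold change 0.51, SE 0.123, adjusted p = 0.0236). Its call was lost without ID2KO replicate 1, ID2KO replicate 3 or WT replicate 2 (adjusted p = 0.0568, 0.0793 and 0.055). The copies stood at a like level in ID2KO, with Slc28a2b to Slc28a2 ratios of 1.094, 0.965 and 1.06, and Slc28a2 exceeded its copy in WT, where the ratios were 0.31, 0.448 and 0.429. Their longest coding transcripts were identical at 96.1% of 3738 aligned bases, and 40.6% of the 50-base stretches of Slc28a2b also occur in Slc28a2, so the division of reads between them is uncertain. The sum of the pair does not depend on that division between the copies: it was 107, 112 and 107 FPKM in ID2KO and 50.4, 45.1 and 59 FPKM in WT.

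The fall was in Slc43a3, which encodes a facilitative carrier of purine nucleobases such as adenine and hypoxanthine, although its family relatives Slc43a1 and Slc43a2 carry amino acids. It had 0.86, 2.53 and 1.58 FPKM in the ID2KO libraries and 11.03, 10.93 and 10.08 FPKM in the WT libraries. The groups lay far apart, with 101 expected counts in the 3 ID2KO libraries together and 704 in the 3 WT libraries, and the log2 fold change was -2.71 (SE 0.294, adjusted p = 0.000449, edgeR). The equilibrative carrier gene Slc29a1 (ENT1), which lets nucleosides pass in both directions, had 37.13, 33.12 and 34.80 FPKM in ID2KO and 38.56, 42.90 and 45.39 FPKM in WT. All ID2KO values lay below the WT values, but the log2 fold change of -0.28 did not pass (SE 0.105, adjusted p = 0.112).

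Several of these genes lie near each other. Slc28a2 (chromosome 2, 122426357 to 122461152) and Slc28a2b (122484941 to 122528040) are 23788 bases apart, and between them lies the pseudogene Bambi-ps1, which was also higher, with 63.15, 56.29 and 59.57 FPKM in ID2KO and 25.59, 28.77 and 29.30 FPKM in WT (log2 fold change 1.09, adjusted p = 0.000394). Slc6a19 (chromosome 13, 73679745 to 73700780) and Slc12a7 (73733052 to 73816754) are 32271 bases apart, and both were higher. Slc6a19os overlaps Slc6a19, and since the sources used here do not say whether counting used strand, reads of the overlapping part cannot be told apart. It was listed at 1.31, 1.19 and 1.60 FPKM in ID2KO and 0.70, 1.0 and 0.63 FPKM in WT, and its log2 fold change of 0.79 did not pass (adjusted p = 0.192). Slc43a1 (chromosome 2, 84838855 to 84863586) and Slc43a3 (84936545 to 84958509) are 72958 bases apart and changed in opposite directions. On the other side of Slc43a1, Timm10 at 8641 bases and Ube2l6 at 28851 bases did not pass (log2 fold change 0.10 and -0.44, adjusted p = 0.704 and 0.167), nor did Clptm1l, 59105 bases from Slc6a19 (-0.32, adjusted p = 0.328). Trip13, 95695 bases from Slc12a7, went the other way from Slc12a7. It had 1.60, 1.83 and 0.68 FPKM in ID2KO and 5.92, 8.38 and 10.32 FPKM in WT (log2 fold change -2.59, adjusted p = 0.000969, edgeR). Near other called Slc genes, Cd7 (77746 bases from Slc16a3) and Tmem109 (12741 from Slc15a3) were lower like them (-0.52 and -1.0). Mib2, 31127 bases from Slc35e2, was higher like it (0.61). Nup85 (-0.44, 90033 bases from Slc16a5) and Lrrc39 (0.44, 86324 bases from Slc35a3) passed the test in the direction opposite to the Slc gene. Whether neighbours change together was not tested.

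**Figure D3:**
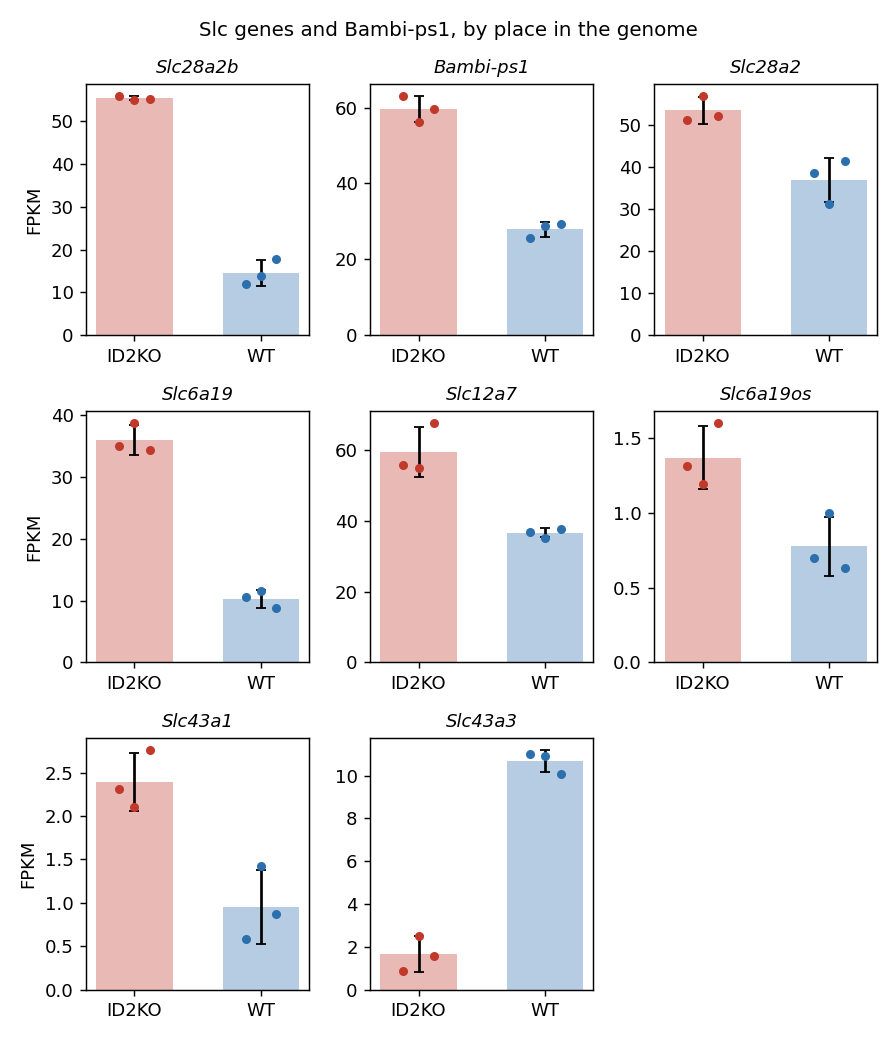
FPKM in ID2KO (left) and WT (right) of Slc genes that lie near each other in the genome and of Bambi-ps1, 1 row per locus (bars are means, error bars SD, points the 3 libraries, and each axis starts at 0). Slc28a2b, Bambi-ps1 and Slc28a2 in the top row and Slc6a19 and Slc12a7 in the middle row were higher in ID2KO, and in the bottom row Slc43a1 was higher and Slc43a3 lower.

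Glucose and other sugar carriers comprised 13 genes, with 2 lower in ID2KO, none higher at the threshold (2 at an unadjusted p under 0.05) and 11 not past the test (median log2 fold change -0.15). The 2 falls were in the class I glucose transporter genes Slc2a3 (GLUT3) and Slc2a1 (GLUT1), which bring glucose into resting and activated T cells by facilitated diffusion. Slc2a3 had 17.24, 16.05 and 18.25 FPKM in ID2KO and 33.23, 28.72 and 28.78 FPKM in WT. The highest ID2KO library stood well below the lowest WT library, and the log2 fold change was -0.83 (SE 0.118, adjusted p = 0.00158, edgeR). Slc2a1, the more abundant of the pair by mean FPKM, had 71.02, 65.03 and 63.17 FPKM in ID2KO and 79.35, 84.13 and 91.55 FPKM in WT. The groups were apart, but the log2 fold change of -0.37 (adjusted p = 0.0402, SE 0.1) was no longer called in any fit that left out 1 library, where the adjusted p was 0.0505 without ID2KO replicate 1, 0.0708 without ID2KO replicate 2, 0.192 without ID2KO replicate 3, 0.0738 without WT replicate 1, 0.0732 without WT replicate 2 and 0.141 without WT replicate 3. It was likewise not called with no filter, by limma with either pseudocount, with the replicate block or with B cell markers as a covariate. The FPKM of both genes together was 88.3, 81.1 and 81.4 in ID2KO and 113, 113 and 120 in WT, and Slc2a3 per Slc2a1 was 0.243, 0.247 and 0.289 in ID2KO and 0.419, 0.341 and 0.314 in WT.

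The most abundant gene of the sugar class by the mean over all 6 libraries was Slc50a1, a carrier of the SWEET family placed mainly in the Golgi, although in WT Slc2a1 was higher (85.0 FPKM on average, against 81.0 FPKM for Slc50a1). It had 98.55, 89.24 and 94.71 FPKM in ID2KO and 74.38, 88.12 and 80.42 FPKM in WT, where the lowest ID2KO value lay just above the highest WT value (log2 fold change 0.21, adjusted p = 0.222). Over the whole class, summed FPKM was 244 ± 5.24 in ID2KO and 256 ± 10.7 in WT. Slc5a3, named after its values were seen, encodes a sodium-coupled myo-inositol carrier that responds to osmotic stress. It had 3.29, 4.63 and 3.30 FPKM in ID2KO and 2.86, 2.31 and 2.05 FPKM in WT, apart but not past the threshold (log2 fold change 0.61, SE 0.18, adjusted p = 0.0532), which it passed without WT replicate 1 (0.80, adjusted p = 0.0225), by DESeq2 and with no filter.

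The 4 genes of the Slc16 family classed as monocarboxylate carriers went both ways, 1 higher, 1 lower and 2 not past the test. Slc16a3 encodes MCT4, the carrier through which strongly glycolytic cells release lactate, and it lies on chromosome 11 from 120948484 to 120959000. It had 2.16, 3.47 and 1.56 FPKM in ID2KO and 7.04, 7.79 and 11.13 FPKM in WT. Even the highest ID2KO library was under the lowest WT library, and the log2 fold change was -1.87 (SE 0.287, adjusted p = 0.00251, edgeR). The span of Slc16a3 overlaps that of Csnk1d, whose log2 fold change was 0.21 (adjusted p = 0.166). Slc16a1 encodes MCT1, the more abundant lactate and pyruvate carrier, with 52.51, 52.07 and 52.45 FPKM in ID2KO, all below the 60.05, 66.79 and 61.27 FPKM in WT. Its log2 fold change of -0.27 did not pass (SE 0.0914, adjusted p = 0.0847). The ratio of Slc16a3 to Slc16a1 was 0.041, 0.067 and 0.03 in ID2KO and 0.117, 0.117 and 0.182 in WT.

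The rise was in Slc16a5 (MCT6), which shares the family of the lactate carriers and is known to carry drugs such as bumetanide rather than lactate. It had 7.53, 7.77 and 8.18 FPKM in ID2KO and 4.07, 3.75 and 4.11 FPKM in WT. The spread within each group was small beside the gap, and the log2 fold change was 0.96 (SE 0.156, adjusted p = 0.00356). Slc16a6 (MCT7) averaged 9.15 ± 1.95 FPKM in ID2KO and 10.4 ± 0.905 FPKM in WT, with overlapping values (log2 fold change -0.20, adjusted p = 0.42).

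Among 20 carriers of inorganic ions, 2 were higher in ID2KO, none was lower at the threshold (1 at an unadjusted p under 0.05) and 18 did not pass. Slc12a7 encodes KCC4, a cotransporter that exports potassium with chloride and takes part in volume regulation. It had 55.91, 55.08 and 67.78 FPKM in ID2KO and 37.01, 35.23 and 37.87 FPKM in WT. The groups were well apart (log2 fold change 0.69, SE 0.116, adjusted p = 0.00448, edgeR). Slc26a11, which encodes a sulfate and anion carrier, had 15.90, 14.20 and 19 FPKM in ID2KO and 10.61, 9.95 and 11.86 FPKM in WT. Its log2 fold change was 0.59 (SE 0.151, adjusted p = 0.0318), and of the fits that left out 1 library it was called without ID2KO replicate 2 (adjusted p = 0.0124), whereas the adjusted p was 0.0716 without ID2KO replicate 1, 0.146 without ID2KO replicate 3, 0.0611 without WT replicate 1, 0.1 without WT replicate 2, 0.069 without WT replicate 3 and 0.0821 with the B cell covariate. The related potassium chloride cotransporter gene Slc12a4, given here for comparison with Slc12a7, overlapped between groups (log2 fold change 0.15, adjusted p = 0.598). The phosphate carrier gene Slc20a1, the most abundant of the class by the mean over all 6 libraries (though Slc12a7 was higher in ID2KO), did not pass (log2 fold change 0.22, SE 0.127, adjusted p = 0.309).

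Metal carriers, the largest class with 22 genes, had no gene past the test in either direction by edgeR, while DESeq2 and the unfiltered edgeR fit each called 1, the copper importer gene Slc31a1, as lower, as did edgeR without WT replicate 1 (adjusted p = 0.0401). At an unadjusted p under 0.05, 1 metal carrier gene was higher and 3 were lower (edgeR). Slc31a1 had 7.74, 8.37 and 5.40 FPKM in ID2KO and 8.25, 13.46 and 10.89 FPKM in WT, which overlap (log2 fold change -0.61, adjusted p = 0.075, edgeR). The summed FPKM of the class was 293 ± 7.05 in ID2KO and 290 ± 11.6 in WT, and the median log2 fold change was 0.02. Slc39a7 (ZIP7), which releases zinc from the endoplasmic reticulum, was the most abundant, with 77.65, 74.75 and 76.77 FPKM in ID2KO and 72.22, 63.62 and 68.50 FPKM in WT (log2 fold change 0.16, adjusted p = 0.361). Slc30a7, which loads zinc into the Golgi, averaged 28.9 ± 2.13 FPKM in ID2KO and 24 ± 2.25 FPKM in WT (0.26, adjusted p = 0.192). Slc39a10, a zinc importer of the cell surface, averaged 3.05 ± 0.429 FPKM in ID2KO and 3.75 ± 0.83 FPKM in WT (-0.30, adjusted p = 0.377).

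**Figure D4:**
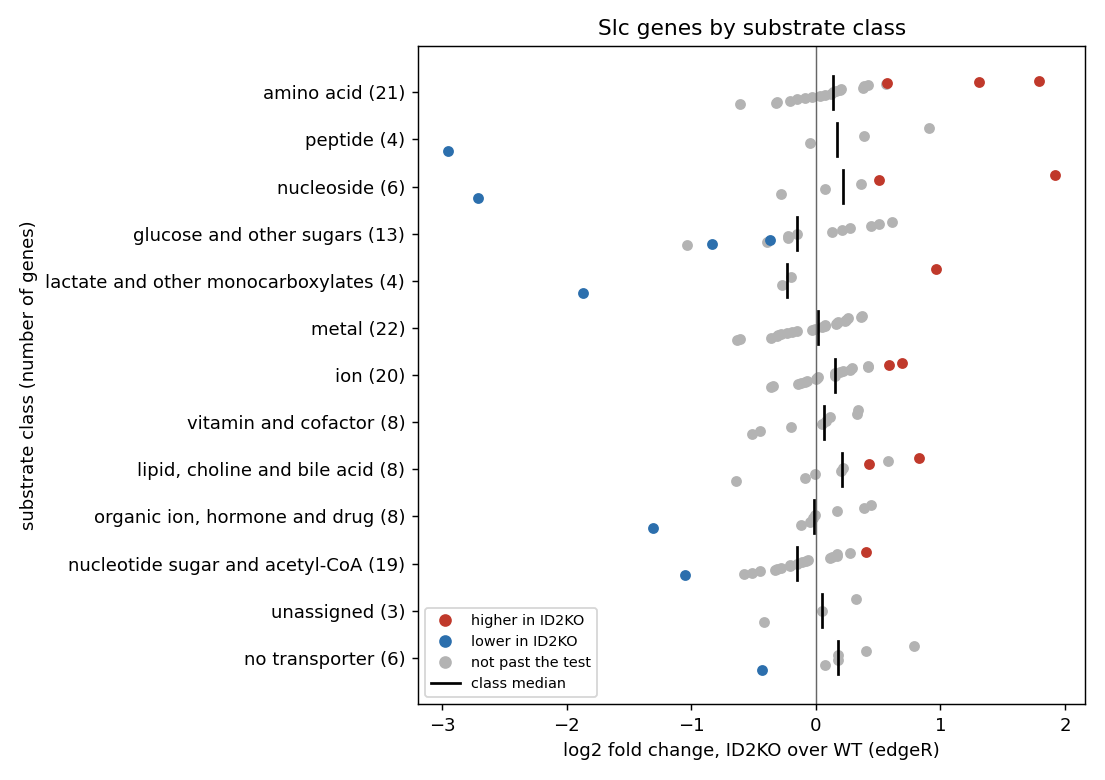
Log2 fold change, ID2KO over WT (edgeR), of the 142 Slc genes by substrate class (1 point is 1 gene, black bars are class medians). The 3 rises among amino acid carriers, the 2 falls among sugar carriers and the 22 grey points of the metal carriers show how the 19 calls were distributed.

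Of 8 carriers of lipids, choline or bile acids, 2 were higher in ID2KO. Slc44a2, which encodes a choline carrier-like protein, was among the most abundant Slc genes, with 179.04, 150.90 and 194.37 FPKM in ID2KO and 121.88, 134.34 and 130.05 FPKM in WT. Its log2 fold change of 0.43 (adjusted p = 0.0444 by edgeR, SE 0.12) was called in 1 of the fits that left out a library, that without ID2KO replicate 2 (adjusted p = 0.00611), and the adjusted p was 0.107 without ID2KO replicate 1, 0.187 without ID2KO replicate 3, 0.0849 without WT replicate 1, 0.0933 without WT replicate 2 and 0.127 without WT replicate 3. It was also not called with the replicate block (adjusted p = 0.0566) or with B cell markers as a covariate (0.33, adjusted p = 0.106). Slc10a2, the sodium-coupled bile acid carrier known from the ileum, was low in both groups. It had 4.02, 4.83 and 4.95 FPKM in ID2KO and 2.63, 2.23 and 2.85 FPKM in WT, without overlap (log2 fold change 0.83, SE 0.186, adjusted p = 0.0175). That call was lost without ID2KO replicate 3 or WT replicate 2 (adjusted p = 0.0863 and 0.0557). Slc10a3, the next most abundant of the class after Slc44a2, showed a log2 fold change of -0.01 (adjusted p = 0.98, SE 0.163).

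The 19 genes of the Slc35 and Slc33 families, which were classed by family as carriers of nucleotide sugars and acetyl-CoA, held 1 rise and 1 fall. Such carriers feed glycosylation in the Golgi and endoplasmic reticulum. Slc35a3 encodes the Golgi carrier of UDP-N-acetylglucosamine, the donor for branched N-glycans. It had 3.44, 3.10 and 2.47 FPKM in ID2KO and 5.07, 6.48 and 7.01 FPKM in WT, with all ID2KO values below the WT values (log2 fold change -1.05, SE 0.187, adjusted p = 0.00563, edgeR). The rise was in Slc35e2, which has no assigned substrate and was placed here by its family alone. It had 19.76, 24.12 and 23.16 FPKM in ID2KO and 15.80, 17.21 and 17.30 FPKM in WT (0.40, SE 0.0992, adjusted p = 0.0279). Its call was lost by limma with either pseudocount and without ID2KO replicate 3 or WT replicate 1, 2 or 3 (adjusted p = 0.12, 0.0671, 0.0732 and 0.0811). Slc35b1, which exchanges ATP across the endoplasmic reticulum membrane, averaged 33.4 ± 5.59 FPKM in ID2KO and 45.1 ± 2.78 FPKM in WT and missed the threshold (-0.45, SE 0.131, adjusted p = 0.0527), except without ID2KO replicate 2 (-0.55, adjusted p = 0.0226) and by DESeq2. Slc35a4 was the most abundant of the class, with 80.6 ± 4.54 FPKM in ID2KO and 86.2 ± 8.23 FPKM in WT (-0.11, adjusted p = 0.505).

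Slco4a1, which encodes a sodium-independent carrier of thyroid hormone and other organic anions, was the call among 8 carriers of organic ions, hormones and drugs. It had 1.44, 2.29 and 1.82 FPKM in ID2KO and 4.16, 4.25 and 5.20 FPKM in WT. The groups were apart, with 135 expected counts in ID2KO and 357 in WT (log2 fold change -1.31, SE 0.23, adjusted p = 0.0053, edgeR). The vesicular nucleotide carrier gene Slc17a9, which loads ATP into vesicles, and the carnitine carrier gene Slc22a5 were the most abundant of that class, with log2 fold changes of 0.17 (adjusted p = 0.513) and -0.01 (adjusted p = 0.97).

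The 4 peptide carriers included the lowest value of the 142 genes. Slc15a3 encodes a carrier of histidine and small peptides in endosomes and lysosomes, and it is known from macrophages and dendritic cells. It had 0.00, 0.39 and 0.05 FPKM in ID2KO and 1.32, 1.10 and 1.02 FPKM in WT, from 0, 7 and 1 expected counts in ID2KO and 26, 22 and 20 in WT. It met the level threshold through the WT libraries alone, so it had to be the lower in ID2KO, and its log2 fold change of -2.95 (adjusted p = 0.0203 by edgeR, SE 0.683) is a description. The value was -5.10 without ID2KO replicate 2, where 1 count is left in ID2KO, and the adjusted p was 0.0505 without ID2KO replicate 1, 0.0966 without ID2KO replicate 3, 0.0592 without WT replicate 3 and 0.0571 by limma at a pseudocount of 0.1. The dendritic cell marker sums given above were also lower in every ID2KO library, and their part in this difference was not tested.

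Slc15a2, which encodes the proton-coupled peptide carrier PEPT2, had the widest spread of the 123 Slc genes with a mean of at least 2 FPKM. It stood at 8.90, 14.18 and 9.62 FPKM in ID2KO and at 1.38, 3.02 and 12.93 FPKM in WT. WT replicate 3 lay among the ID2KO libraries and the other WT libraries far below them, a coefficient of variation of 108% in WT. The log2 fold change was 0.91 with all libraries (SE 0.587, adjusted p = 0.358) and 2.28 without WT replicate 3 (adjusted p = 0.00474, edgeR). The more evenly expressed Slc15a4, an endolysosomal histidine and peptide carrier, showed a log2 fold change of -0.05 (adjusted p = 0.871, SE 0.156).

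None of the 8 vitamin and cofactor carriers and none of the 3 genes placed in no substrate class passed edgeR's test, and 0 of these 11 had an unadjusted p under 0.05. DESeq2 called none of them either. Slc19a1, the reduced folate carrier, averaged 16.8 ± 2.29 FPKM in ID2KO and 15.4 ± 2.73 FPKM in WT (log2 fold change 0.11, adjusted p = 0.711). Slc23a2, a sodium-coupled ascorbate carrier, had 10.88, 18.27 and 11.37 FPKM in ID2KO and 8.25, 12.13 and 11.31 FPKM in WT (0.34, adjusted p = 0.288). With the B cell markers as a covariate its log2 fold change was 0.57 (adjusted p = 0.00891). Slc66a2 had 11.84, 23.13 and 11.42 FPKM in ID2KO and 13.18, 25.11 and 22.35 FPKM in WT. Its highest libraries were ID2KO replicate 2, WT replicate 2 and WT replicate 3, the same 3 in which the B cell marker sums were highest. The log2 fold change was -0.42 (adjusted p = 0.377), -0.06 with the covariate (adjusted p = 0.859) and -0.80 without ID2KO replicate 2 (adjusted p = 0.0465). Slc14a1, a urea channel gene placed in no class, showed a log2 fold change of 0.05 (adjusted p = 0.885, SE 0.178).

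Of the 6 entries that encode no carrier, Slc9a3r1 was lower in ID2KO. It encodes NHERF1, a PDZ scaffold that anchors membrane proteins to ezrin and the actin cortex. It had 53.56, 58.63 and 54.66 FPKM in ID2KO and 74.26, 69.18 and 79.29 FPKM in WT, without overlap (log2 fold change -0.43, SE 0.0976, adjusted p = 0.0178, edgeR). The adjusted p was above the threshold without ID2KO replicate 1 (0.0682), ID2KO replicate 3 (0.0971), WT replicate 1 (0.0604) or WT replicate 3 (0.0766). Slc7a6os, named for its place on the strand opposite Slc7a6, showed a log2 fold change of 0.07 (adjusted p = 0.763, SE 0.118).

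Levels spanned a wide range among the 142 genes. The mean over all 6 libraries was below 2 FPKM for 19 genes, between 2 and 10 for 66, between 10 and 50 for 46 and at least 50 for 11, with a median of 7.89 FPKM. After Slc3a2 (373 FPKM), the most abundant were Slc44a2 (152), Slc1a5 (139), Slc50a1 (87.6), Slc35a4 (83.4), Slc2a1 (75.7), Slc39a7 (72.3), Slc38a2 (69.5), Slc9a3r1 (64.9), Slc16a1 (57.5) and Slc20a1 (50.6). The precision followed the level: the median standard error of the log2 fold change was 0.128 for genes of at least 10 FPKM and 0.307 for those under 2 FPKM. The median coefficient of variation over the 123 genes of at least 2 FPKM was 13.2% in ID2KO and 12.2% in WT. The summed FPKM of all 142 genes was 2640 ± 39.9 in ID2KO and 2440 ± 45.9 in WT.

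**Figure D5:**
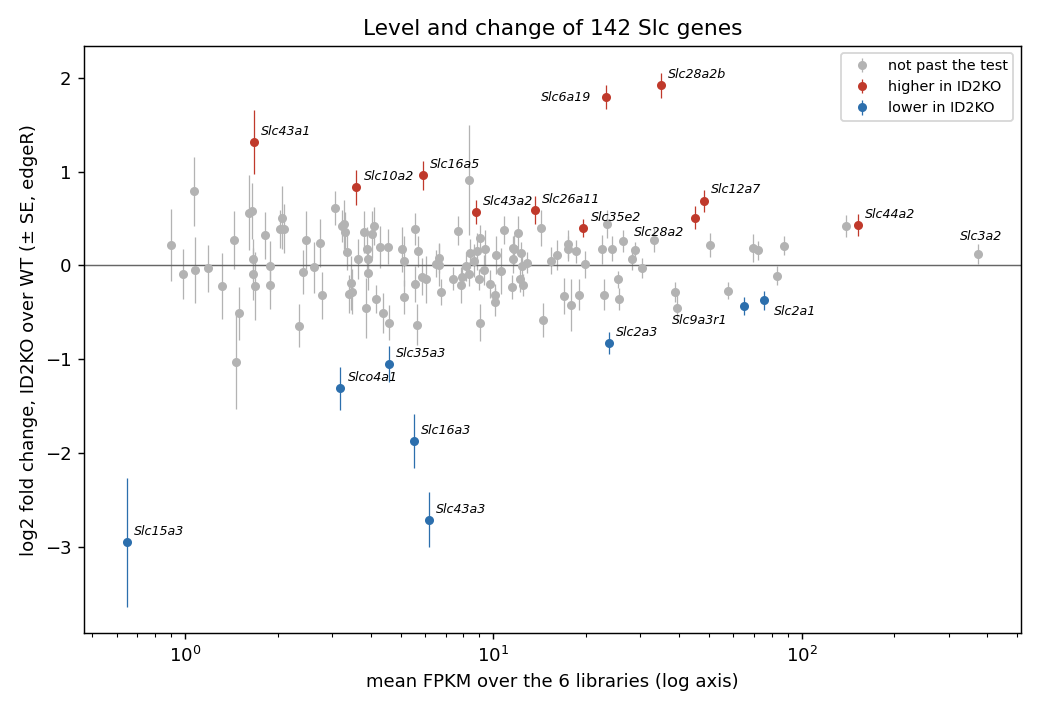
Log2 fold change, ID2KO over WT (edgeR), against the mean FPKM over the 6 libraries on a log axis, for the 142 Slc genes. Error bars are standard errors derived from edgeR's F statistic. The rises of Slc28a2b (1.92) and Slc6a19 (1.79) were at moderate levels, the falls of Slc15a3, Slc43a3 and Slc16a3 at low levels, and Slc3a2, the most abundant gene, lies near 0.

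Of the members, 129 reached 1 FPKM in all 6 libraries, 9 in 4 or 5 and 4 in exactly 3. Slc15a3 was the only gene that passed through WT alone, and none passed through ID2KO alone. By their third-highest FPKM, Slc44a1 (1.0), Slc36a1 (1.02) and Slc15a3 (1.02) were the nearest inside the threshold, and Slc6a18 (0.89), Slc16a13 (0.89) and Slc36a3 (0.87) the nearest outside it. The 119 genes below it included 38 under 0.1 FPKM in every library. Slc40a1, which encodes the iron exporter ferroportin, reached at most 0.07 FPKM, and the sodium, potassium and chloride importer gene Slc12a2 had 0.59, 1.04 and 0.41 FPKM in ID2KO and 0.49, 0.78 and 1.02 FPKM in WT. In a fit without the level filter, 2 genes below the threshold were lower in ID2KO, both named after their values were seen. Slc41a2, a magnesium carrier gene, had 0.08, 0.06 and 0.09 FPKM in ID2KO and 0.46, 0.56 and 0.41 FPKM in WT (adjusted p = 0.00823, edgeR), from 8 counts in ID2KO and 53 in WT. The monoamine carrier gene Slc29a4 was at 0 in all 3 ID2KO libraries and had 0.20, 0.28 and 0.32 FPKM in WT (adjusted p = 0.0241), from 20 counts in WT.

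Partners and regulators of carriers were read from a list of 49 genes, 43 of which passed the level threshold. Of these, 2 were higher in ID2KO, 8 were lower and 33 did not pass, beside 3.14% higher and 8.77% lower among all genes tested, and the median log2 fold change was -0.11. Because the list was chosen with earlier results of these data known, its counts cannot show an excess over all genes. The 8 include Mt2, which met the level threshold through the WT libraries alone and so could only be lower. Bsg encodes basigin, the chaperone that brings MCT1 and MCT4 to the surface, and it had 145.44, 151.58 and 137.66 FPKM in ID2KO and 182.55, 189.52 and 213.33 FPKM in WT (log2 fold change -0.43, adjusted p = 0.0172, edgeR). Its call was lost without ID2KO replicate 1, ID2KO replicate 3 or WT replicate 3 (adjusted p = 0.0541, 0.113 and 0.0731). Hif1a encodes the oxygen-regulated subunit of the HIF-1 transcription factor, of which Slc2a1 and Slc16a3 are known targets, and it had 42.68, 52.22 and 39.80 FPKM in ID2KO and 75.00, 72.29 and 80.39 FPKM in WT (-0.77, adjusted p = 0.00199). Txnip and Myc, regulators of glucose carrier turnover and of nutrient carrier transcription, did not pass (0.33 and 0.25, adjusted p = 0.116 and 0.296). Txnip was called higher without ID2KO replicate 1 (0.46, adjusted p = 0.0422) and with the B cell covariate, and Myc without WT replicate 1 (0.45, adjusted p = 0.0289).

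Genes that use nucleosides after uptake were among the falls. Tk1, the thymidine kinase of dividing cells, had 3.36, 6.87 and 2.43 FPKM in ID2KO and 34.22, 25.92 and 48.53 FPKM in WT (log2 fold change -3.12, adjusted p = 0.000449, edgeR). Dck, the deoxycytidine kinase gene, and Pnp, which encodes purine nucleoside phosphorylase, had log2 fold changes of -0.57 and -0.48 (adjusted p = 0.0234 and 0.024). The call of Dck was lost without ID2KO replicate 1, ID2KO replicate 3, WT replicate 1 or WT replicate 3 (adjusted p = 0.0604, 0.128, 0.0582 and 0.0922), and that of Pnp without ID2KO replicate 1, ID2KO replicate 3, WT replicate 1 or WT replicate 2 (adjusted p = 0.0798, 0.069, 0.07 and 0.0792). Ada, Adk and Nt5e, which act on adenosine or AMP, did not pass, though Adk was called higher without ID2KO replicate 2 (0.56, adjusted p = 0.0399).

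The zinc-binding metallothionein genes Mt1 and Mt2 were lower while no zinc carrier gene passed the test. Mt1 had 0.90, 2.10 and 2.54 FPKM in ID2KO and 18.59, 18.77 and 17.91 FPKM in WT (log2 fold change -3.32, adjusted p = 0.000341, edgeR), and Mt2 had 0.47, 0.00 and 0.24 FPKM in ID2KO and 9.67, 11.98 and 7.26 FPKM in WT (adjusted p = 0.000462), from 3 counts in ID2KO and 129 in WT. Mt2 met the level threshold through the WT libraries alone, so it had to be the lower in ID2KO, and its values are a description. Among pumps and sensors, Atp1b1, a beta subunit of the sodium pump, had 50.74, 43.99 and 47.05 FPKM in ID2KO and 21.97, 36.86 and 25.37 FPKM in WT (0.74, adjusted p = 0.0166). Sesn3, which encodes an inhibitor of the amino acid-sensing kinase complex mTORC1, had 32.74, 26.90 and 36.18 FPKM in ID2KO and 19.83, 20.50 and 20.19 FPKM in WT (0.65, adjusted p = 0.0123). The call of Atp1b1 was lost without ID2KO replicate 1, ID2KO replicate 3 or WT replicate 3 (adjusted p = 0.061, 0.0612 and 0.0811), and that of Sesn3 without ID2KO replicate 3 or WT replicate 3 (adjusted p = 0.0616 and 0.0548). The plasma membrane calcium pump gene Atp2b4 was lower (-1.01, adjusted p = 0.0253), without a call when ID2KO replicate 1, WT replicate 1 or WT replicate 3 was left out (adjusted p = 0.0811, 0.0579 and 0.0954).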

How the data were processed

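Per the labels, total RNA of sorted CD8+ T cells went into libraries prepared by Illumina's usual protocols. CASAVA, Bowtie2, RSEM and mm10 are named, without versions, in the submitters' processing notes. The deposited tables give, per the file headers, an expected count for each gene, which RSEM estimates by dividing reads that match several genes, and its FPKM; between 25.0% and 26.2% of the deposited expected counts were not whole. Genes missing from a library's table were taken as 0, and NCBI gene numbers were matched to RefSeq symbols (GRCm38.p6). Of 16749 numbers, 16707 had a symbol.

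Expected counts were rounded, scaled by TMM and tested, ID2KO against WT, by the quasi-likelihood test of edgeR 4.0.16 (R 4.3.3) on the 10890 genes with at least 1 FPKM in at least 3 of 6 libraries, the biological coefficient of variation being 0.156. The unit of FPKM values deposited by the authors was used for levels, sums and ratios. DESeq2 1.42.0 and limma 3.58.1 on log2(FPKM + 1) and log2(FPKM + 0.1) were alternatives, as were those under the processing section. Tables and figures used pandas 2.3.3 and matplotlib 3.10.9 in Python 3.11.15.

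The members, the substrate classes and places in the cell (assigned by hand from general knowledge), the partner list and the marker lists were chosen with earlier results of these data known. Genes named were, per class, up to 3 rises and 3 falls past the test by smallest p, the 2 most abundant members, a list of carriers known in activated T cells, and those next to the level threshold. Some genes that the rule takes are left out of the text. On simulated counts for 10890 genes with 200 changed, edgeR found 79% of the 2-fold and 93% of the 4-fold changes, and 18 of its 190 calls were false. In the data 1297 genes were called, and many changes named here were under 2-fold, which the simulated set did not hold. The simulation therefore does not give the error rate of the calls reported here. Libraries of a group were not duplicates of each other (chi-square between 5.19 and 16.3 per degree of freedom). Transcript identity between Slc28a2 and Slc28a2b was from a local alignment of the longest protein-coding transcripts in GENCODE.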

Additional observations from a re-analysis of the deposited data

How the results depend on the processing

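With 3 libraries per group, the number of Slc genes higher in ID2KO ranged from 4 to 14 when 1 library was left out (11 with all libraries), and the number lower from 5 to 12 (8 with all). DESeq2 gave 13 higher and 11 lower, DESeq2 size factors 12 and 8, no filter 13 and 9, an FPKM minimum of 5 gave 10 and 6 with 51 Slc genes not in the fit, limma 11 and 7 (pseudocount 1) or 10 and 6 (0.1), the B cell marker covariate 9 and 7, and removal of the 50 most abundant genes 12 and 8. With the replicate number as a block the counts were 10 higher and 7 lower. The deviations of same-numbered libraries from their group means had correlations of 0.118, 0.075 and -0.03. The labels do not state whether the numbers mark a shared day or litter, and these correlations cannot decide it, since no reference value was set for them. Of the partner genes, 0 to 3 were higher and 5 to 9 lower with 1 library left out; edgeR called 0 higher without ID2KO replicate 3 or WT replicate 3, where 3 were higher at an unadjusted p under 0.05, and 4 with the B cell covariate. Among the 46 genes followed through the alternatives, the sign of 7 with changes near 0 turned: Slc10a3 (-0.12 to 0.09 over left-out libraries, 0.0 with no filter), Slc14a1 (-0.1 to 0.25), Slc15a4 (-0.14 to 0.08, 0.03 with the B cell covariate), Slc17a9 (-0.02 with that covariate), Slc19a1 (-0.01 to 0.23), Slc22a5 (-0.14 to 0.07, 0.0 with no filter) and Slc6a6 (-0.04 to 0.1). Of the genes named for their nearness to the level threshold, Slc36a1 (-0.09) was at 0.06 and Slc44a1 (0.22) at -0.06 without WT replicate 3. The causes were not tested. Over 46 named genes and 15 alternatives, 602 values kept direction and side of the threshold, 52 lost and 14 gained a call. No alternative moved the median of all genes by more than 0.03.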
